A study of Mus musculus with 28 samples.

Results

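The satellite cell and myogenic factors described here are 9 genes, *Pax7*, *Pax3*, *Myf5*, *Myod1*, *Myog*, *Myf6*, *Cdh15*, *Chrna1* and *Musk*, taken by symbol from the 50600 genes in the counts. RNA was sequenced from stromal and luminal cells sorted from the mammary glands of 7 adult female *PdgfrαCre R26mTmG* mice on a C57BL/6 background, of which 4 were untreated and 3 received estrogen plus progesterone (E+P). All mice carried both alleles, so that cells which had expressed Cre under *Pdgfrα* control, and their progeny, were GFP+, and the remaining cells were tdTomato+. Each mouse gave GFP+ stroma, tdTomato+ stroma, GFP+ luminal cells and tdTomato+ luminal cells, which made 28 libraries in 8 groups. Cells with endothelial, erythroid or haematopoietic surface markers were excluded in the sort, whereas no surface marker of muscle was used. The tdTomato+ stroma is thus defined by the absence of GFP and of epithelial markers, and may hold several kinds of cells.

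Satellite cells are the stem cells of skeletal muscle and lie between a muscle fibre and its basement membrane. PAX7, a paired-box transcription factor, marks them, and its relative PAX3 acts in embryonic muscle precursors and in satellite cells of some adult muscles. The basic helix-loop-helix factors MYF5, MYOD, MYF6 and myogenin bind E-boxes and take a muscle precursor through commitment and differentiation, with MYF5 and MYOD early and myogenin at the onset of fusion. M-cadherin, encoded by *Cdh15*, joins satellite cells to fibres, while *Chrna1* and *Musk* encode the α subunit of the muscle acetylcholine receptor and the agrin-activated receptor kinase that clusters it.

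All 9 genes were found by Ensembl identifier in GENCODE M21 (GRCm38), and none shares exon bases with another gene. *Pax7* (ENSMUSG00000028736) lies at chr4:139737062-139833528, *Myod1* at chr7:46376474-46379099, *Myog* at chr1:134289989-134292548, *Chrna1* at chr2:73563215-73580338 and *Musk* at chr4:58285960-58374303. *Myf5* and *Myf6* are neighbours on chromosome 10, with 6718 bases between them. RefSeq promoter sequences (GRCm38.p6) were at hand for 6 of the 9 genes. The windows of *Myog* and *Chrna1*, whose levels went together over the libraries, and of *Musk*, the steadiest of the 9 genes, are shown from 250 to 16 bases before the RefSeq start, 5′ to 3′ on the strand of the gene, with E-boxes (CANNTG, which reads the same on both strands) in capitals.

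*Myog*, chr1:134289754-134289988, plus strand: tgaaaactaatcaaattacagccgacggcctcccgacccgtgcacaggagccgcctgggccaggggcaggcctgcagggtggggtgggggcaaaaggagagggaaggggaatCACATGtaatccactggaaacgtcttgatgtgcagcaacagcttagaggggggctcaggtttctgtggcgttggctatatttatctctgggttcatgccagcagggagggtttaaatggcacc
*Chrna1*, chr2:73580354-73580588, minus strand: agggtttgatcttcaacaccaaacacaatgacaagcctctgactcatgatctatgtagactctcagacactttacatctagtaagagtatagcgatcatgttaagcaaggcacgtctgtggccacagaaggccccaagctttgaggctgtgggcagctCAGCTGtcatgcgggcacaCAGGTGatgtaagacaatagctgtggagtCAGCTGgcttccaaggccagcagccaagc
*Musk*, chr4:58285712-58285946, plus strand: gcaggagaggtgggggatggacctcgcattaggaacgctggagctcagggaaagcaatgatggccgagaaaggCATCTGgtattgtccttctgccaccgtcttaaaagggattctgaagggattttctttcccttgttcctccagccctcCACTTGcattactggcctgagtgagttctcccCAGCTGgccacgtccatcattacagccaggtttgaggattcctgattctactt

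The *Myog* window holds 1 E-box, and 64.1% of the 32851 windows of this length in the table hold at least 1. *Chrna1* and *Musk* hold 3 each, and 10.8% of all windows hold at least 3. Of the windows not shown, that of *Cdh15* holds 3 E-boxes and those of *Pax7* and *Myf5* hold 0, and none of these holds CAGCTG. The windows of *Pax7* and *Cdh15* lie inside the annotated gene. CAGCTG, the same on both strands and itself an E-box, occurs 2 times in the *Chrna1* window and 1 time in that of *Musk*, against at least 1 time in 12.1% of all windows. These are matches of letters, and no binding was measured.

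Levels are given as CPM, counts scaled to a common library size with edgeR's TMM factors. Between 8623383 and 24583803 reads were counted per library. The 9 genes gave 33298 counts in the 7 tdTomato+ stromal libraries, 98.7% of all their counts, against 265 in GFP+ stroma and 173 in the 14 luminal libraries. In the 28 libraries, every one of the 9 genes had all 7 tdTomato+ stromal values above the other 21. The share of all genes that did so was not counted. Against the 7 GFP+ stromal libraries alone, it was 12.6% of the genes tested in stroma. In bulk samples, fewer cells of a kind and less RNA per cell cannot be told apart, and this holds for every level below.

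**Figure D1:**
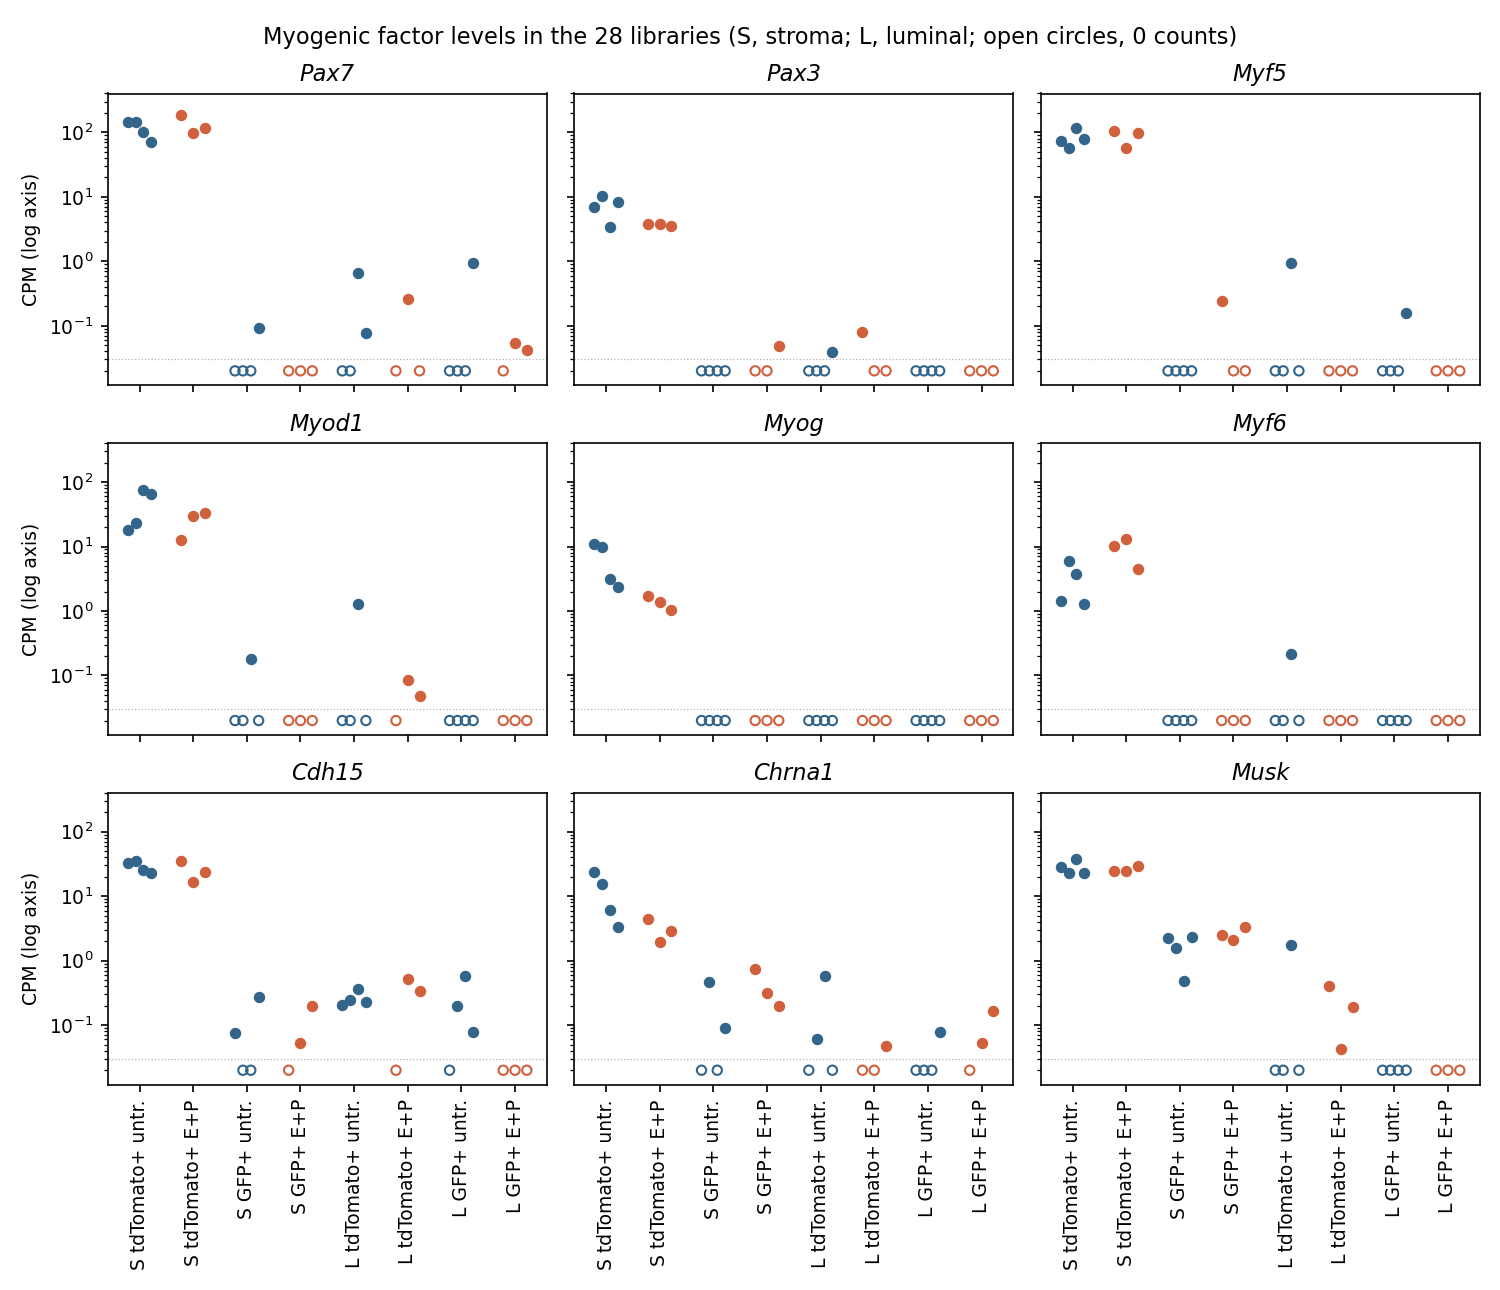
CPM (log axis) of each of the 9 genes in the 28 libraries, by group, with untreated mice in blue, E+P-treated mice in orange and libraries with 0 counts as open circles below the dotted line. Values in tdTomato+ stroma lie above those of the other 21 libraries in each panel, and of the genes only *Musk* had counts in every GFP+ stromal library.

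Of the paired-box genes, *Pax7* stood at 147.1, 143.5, 101.7 and 70.01 CPM in the tdTomato+ stroma of the 4 untreated mice and at 187.4, 97.18 and 117.1 CPM in that of the 3 E+P-treated mice. The ranges of both treatments overlapped. A single *Pax7* count was found in the 7 GFP+ stromal libraries together, against 12946 in tdTomato+ stroma, a ratio of pooled CPM of 13180 (95% counting interval, 2365 to 520600). *Pax3* was at 7.03, 10.2, 3.385 and 8.254 CPM without treatment and at 3.776, 3.755 and 3.487 CPM after E+P. It also had 1 count in GFP+ stroma, with a ratio of 539.6 (96.43 to 21350). Intervals and floors cover counting error only, with reads pooled over the libraries of a group and taken as independent counts. They leave out the spread between mice and the pairing within a mouse. Reads carried no molecular identifiers, so that copies made by amplification were counted as well.

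Of the early myogenic factors, *Myf5* was at 73.62, 58.03, 115.5 and 79.82 CPM in untreated and 105.6, 57.66 and 97.94 CPM in E+P-treated tdTomato+ stroma, so the treatments overlapped. *Myod1* varied more, with 18.33, 23.28, 73.87 and 65.64 CPM untreated and 12.81, 29.59 and 33.46 CPM after E+P. Each had 3 counts in GFP+ stroma, all in 1 library, and the ratios of pooled CPM were 2992 (1024 to 14510) for *Myf5* and 1234 (422 to 5988) for *Myod1*.

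The later factors had fewer reads. *Myog* was at 10.83, 9.747, 3.186 and 2.331 CPM in untreated mice and at 1.684, 1.383 and 1.04 CPM in E+P-treated mice, and all 3 treated values lay below the 4 untreated ones. Neither GFP+ stroma nor any luminal library had a *Myog* count, which allows up to 0.0286 CPM over the GFP+ stromal libraries, and tdTomato+ stroma was at least 126.2-fold higher than this floor of 3 counts over the group. *Myf6* ran the other way between the treatments, with 1.425, 6.047, 3.783 and 1.262 CPM untreated and 10.21, 13.29 and 4.527 CPM after E+P, and the groups overlapped. *Myf6* had no count in GFP+ stroma, and tdTomato+ stroma was at least 235.9-fold higher.

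*Cdh15*, the adhesion gene, was at 33.25, 35.29, 25.82 and 22.53 CPM in untreated and 34.86, 16.6 and 23.67 CPM in E+P-treated tdTomato+ stroma. With 9 counts in GFP+ stroma, its ratio was 313.1 (164.7 to 685.5).

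The receptor genes of the junction differed from the transcription factors in GFP+ stroma. *Chrna1* was at 23.46, 15.7, 6.039 and 3.302 CPM in untreated and 4.491, 1.976 and 2.936 CPM in E+P-treated tdTomato+ stroma, and had 26 counts in 5 of 7 GFP+ stromal libraries, a ratio of 28.27 (19.13 to 43.58). *Musk* was at 27.93, 22.65, 38.16 and 23.21 CPM in untreated and 24.8, 24.36 and 28.94 CPM in E+P-treated tdTomato+ stroma. Its values were also above 0 in each GFP+ stromal library, at 2.271, 1.55, 0.4876 and 2.293 CPM untreated and 2.516, 2.112 and 3.345 CPM after E+P. The ratio of pooled CPM for *Musk*, 12.89 (11.24 to 14.85), was the smallest of the 9 genes. Its interval leaves out the spread between mice, whose GFP+ values ran from 0.4876 to 3.345 CPM.

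In edgeR's quasi-likelihood test, with 17783 genes tested in the 14 stromal libraries and called at a Benjamini-Hochberg adjusted p of 0.01, 9 of 9 genes were called higher in tdTomato+ than in GFP+ stroma over both treatments. Of all genes tested, 21.3% were called in that direction, and 12.6% had the 7 tdTomato+ libraries all above the 7 GFP+ libraries. The log2 fold change (tdTomato+ minus GFP+) was 13.02 ± 0.45 (SE, adjusted p = 1.03e-10) for *Pax7*, 8.19 ± 0.41 (5.55e-11) for *Cdh15*, 4.71 ± 0.63 (1e-05) for *Chrna1* and 3.71 ± 0.26 (1.83e-09) for *Musk*. The other 5 genes lay between 8.42 for *Pax3* and 11.80 for *Myf5*. Genes at or near 0 in GFP+ stroma have fitted values that depend on edgeR's prior count, and 8 of the 9 passed the low-count filter only through the tdTomato+ libraries (of the 9, *Musk* alone had at least 10 counts in 3 or more GFP+ stromal libraries), so that the count of calls adds little to the levels above.

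Within untreated mice 9 of 9 genes were called (14.9% of all genes), and within E+P-treated mice 8 of 9 (13.9%). The exception was *Chrna1* after E+P, with a log2 fold change of 2.99 ± 0.86 and an adjusted p of 0.011, where untreated mice gave 6.43 ± 0.89 (2.75e-05). With the mouse as a block the E+P value was 2.99 and passed the threshold (adjusted p = 0.00284), which made 9 of 9. Whether *Chrna1* differed between the treatments in this contrast was not tested.

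Luminal cells held few reads of these genes. In a fit of all 28 libraries, 9 of 9 genes were called higher in tdTomato+ stroma than in tdTomato+ luminal cells, against 31.9% of the 19569 genes tested. None of the 9 genes reached 10 counts in 3 luminal libraries, so they passed the low-count filter through the stromal libraries. The count of calls thus adds little to the levels. *Myog* had 0 counts in the 14 luminal libraries. The luminal counts were uneven, since 80 of the 173 counts came from the tdTomato+ luminal cells of untreated mouse 3, with *Musk* at 1.735 CPM, *Myod1* at 1.301 CPM and *Myf5* at 0.9396 CPM. Another untreated library, GFP+ luminal cells of mouse 4, had *Pax7* at 0.9431 CPM from 12 counts.

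Between genes, levels were compared per kilobase of exon. *Myf5* was the highest in tdTomato+ stroma at 40.3 ± 11.0 CPM per kb (SD, n = 7), followed by *Pax7* at 21.1 ± 6.65, *Myod1* at 19.7 ± 12.7, *Cdh15* at 8.44 ± 2.21 and *Musk* at 7.19 ± 1.43 CPM per kb. *Myf6* (4.59 ± 3.56), *Myog* (2.89 ± 2.78), *Chrna1* (1.89 ± 1.86) and *Pax3* (0.921 ± 0.449) were the lowest. *Myf5* exceeded *Pax7* in 7 of 7 libraries and *Myog* exceeded *Chrna1* in 7 of 7, despite overlapping ranges. The other neighbours changed places, with *Pax7* above *Myod1* in 5 of 7 libraries and *Cdh15* above *Musk* in 4 of 7. Lengths are the union of annotated exons, not the transcripts in use.

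**Figure D2:**
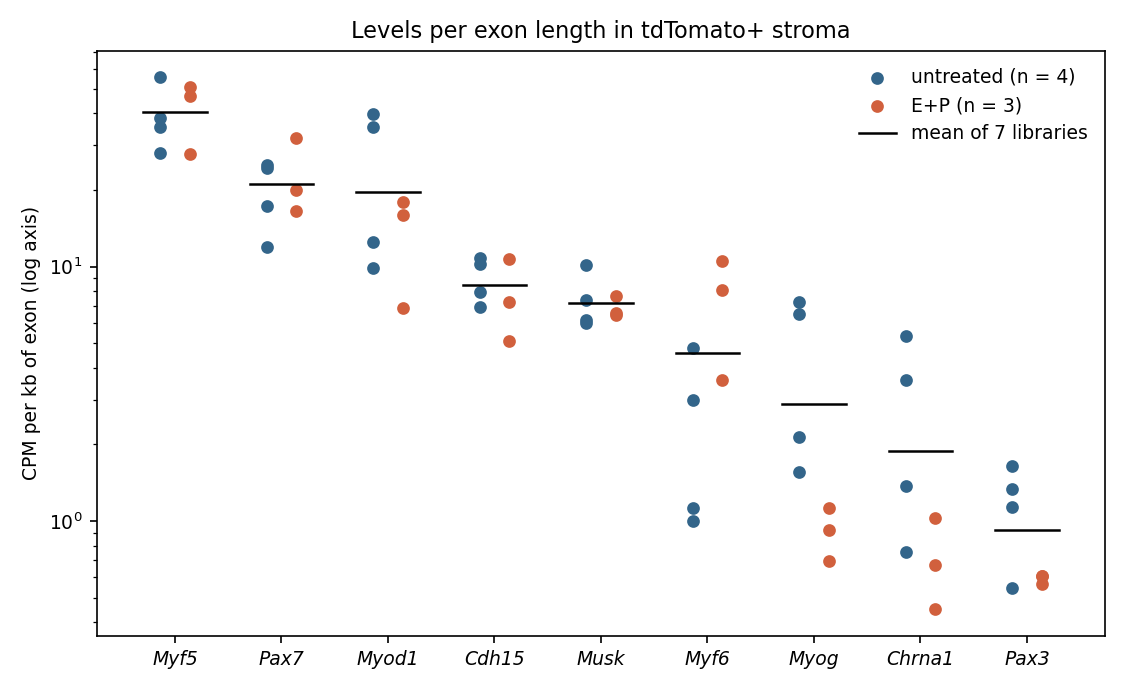
CPM per kb of exon (log axis) of the 9 genes in the 7 tdTomato+ stromal libraries, in order of their mean (black line), with untreated mice in blue and E+P-treated mice in orange. *Myf5* leads at 40.3 CPM per kb and *Pax3* is last at 0.921, and the points of most neighbouring genes overlap.

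The 9 genes did not vary together between the 7 tdTomato+ stromal libraries. The highest value was 1.69 times the lowest for *Musk*, 2.00 times for *Myf5*, 2.13 times for *Cdh15*, 2.68 times for *Pax7* and 3.01 times for *Pax3*, but 5.77 times for *Myod1*, 10.4 times for *Myog*, 10.5 times for *Myf6* and 11.9 times for *Chrna1*. Over both treatments together, *Musk*, *Myf5*, *Cdh15* and *Pax7* were thus steadier than *Myod1*, *Myog*, *Myf6* and *Chrna1*. Among untreated mice the split was the same, with 1.57 to 2.10 times against 4.03 to 7.11 times. Among E+P-treated mice *Myog* (1.62 times) varied less than *Myf5* (1.83), *Pax7* (1.93) and *Cdh15* (2.10). *Chrna1* (2.27), *Myod1* (2.61) and *Myf6* (2.94) varied more there, and *Musk* (1.19) less. This is a description of 7 libraries, and some of the more variable genes rest on few counts (17 to 114 per library for *Myog*).

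*Pax7* and *Cdh15* kept a ratio of 1.72 to 3.25 per kb, and *Chrna1* and *Myog* one of 0.483 to 0.962, although each of the latter pair spanned more than 10-fold. *Myog* and *Chrna1* were both highest in untreated mouse 1, next in untreated mouse 2 and then in untreated mouse 3. In contrast, *Myod1* over *Pax7* ran from 0.215 in E+P-treated mouse 1, the library with the most *Pax7*, to 2.29 and 2.95 in untreated mice 3 and 4. Of all pairs of the 9 genes, Pearson's r of log2 CPM was highest for *Myog* with *Chrna1* (0.955) and lowest for *Pax7* with *Myod1* (-0.875). Both pairs are thus the extremes of a description of 7 libraries. *Myog* over *Myod1* was 0.736 and 0.521 in untreated mice 1 and 2 and between 0.0387 and 0.164 in the other 5 libraries. Among the untreated mice, mice 1 and 2 thus combined lower *Myod1* with higher *Myog* and *Chrna1*, and mice 3 and 4 the reverse, with *Pax7* and *Cdh15* within 2.10-fold and 1.57-fold of each other over these 4 libraries. *Mymk*, which encodes the fusion protein myomaker and was singled out after its values were seen, stood at 3.135 and 4.332 CPM in untreated mice 1 and 2 and at 0.5309 and 0.6797 CPM in untreated mice 3 and 4.

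**Figure D3:**
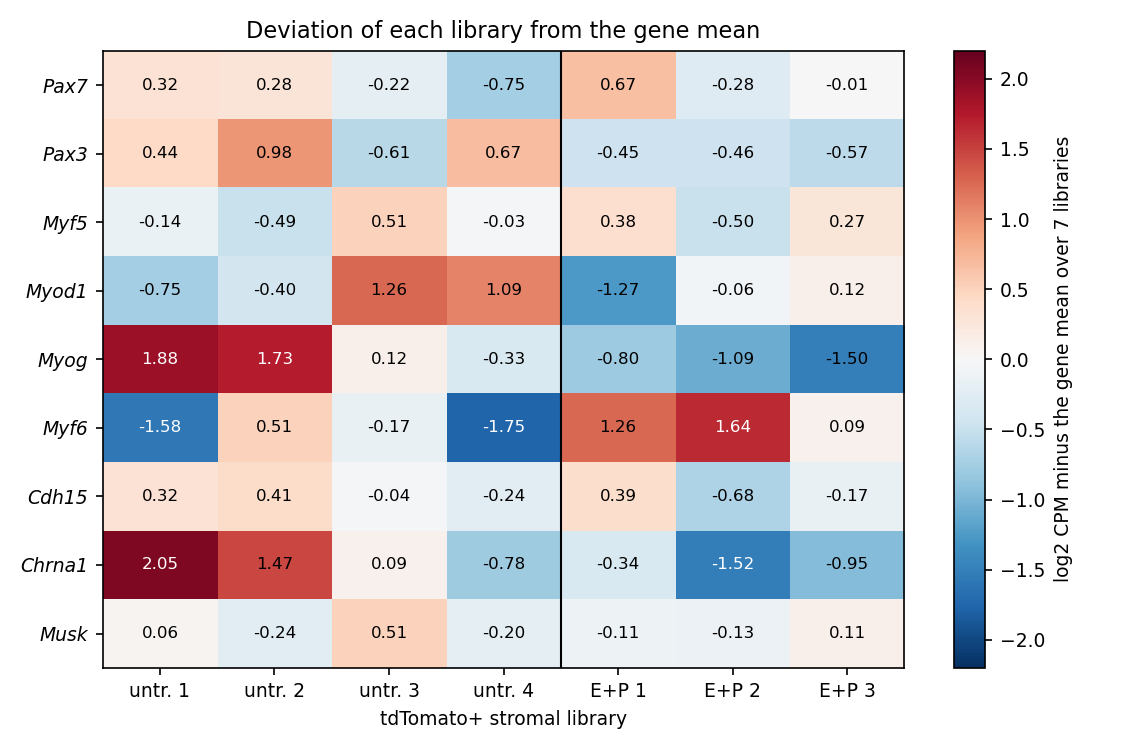
Log2 CPM of each gene (rows) in each tdTomato+ stromal library (columns, untreated mice left of the line and E+P-treated mice right of it) minus the mean of the gene over the 7 libraries, red for higher and blue for lower. *Myog* and *Chrna1* are red in untreated mice 1 and 2 and blue in all 3 E+P-treated mice, *Myod1* is red in untreated mice 3 and 4, and *Musk* stays pale.

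The question of whether hormone treatment changed these genes in tdTomato+ stroma was addressed by comparing 3 E+P-treated with 4 untreated mice. None of the 9 genes passed the threshold in edgeR's test (0 of 9, against 0.124% of all genes called in either direction and 0.0956% called lower), and none passed with DESeq2 or limma-voom. At an unadjusted p under 0.05 there were 3 of 9, namely *Myog*, *Chrna1* and *Myf6*, against 15.6% of all genes. The log2 fold change (E+P minus untreated) was -2.24 ± 0.66 (SE, adjusted p = 0.124) for *Myog*, -1.94 ± 0.71 (0.192) for *Chrna1* and 1.57 ± 0.59 (0.217) for *Myf6*. For *Pax7* it was 0.22 ± 0.28, for *Myf5* 0.10 ± 0.32, for *Cdh15* -0.22 ± 0.34 and for *Musk* -0.10 ± 0.31, with the sign of each depending on single mice. *Myog* was the one gene with all 3 treated libraries below the 4 untreated libraries, as were 5.48% of all genes, and no gene of the 9 had them all above, as 5.2% of all genes did. The median over the 9 genes was -0.22, and over all genes -0.03. A call of *Chrna1* was made in 1 setting, without the low-count filter (log2 fold change -1.92, adjusted p = 0.00196).

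**Figure D4:**
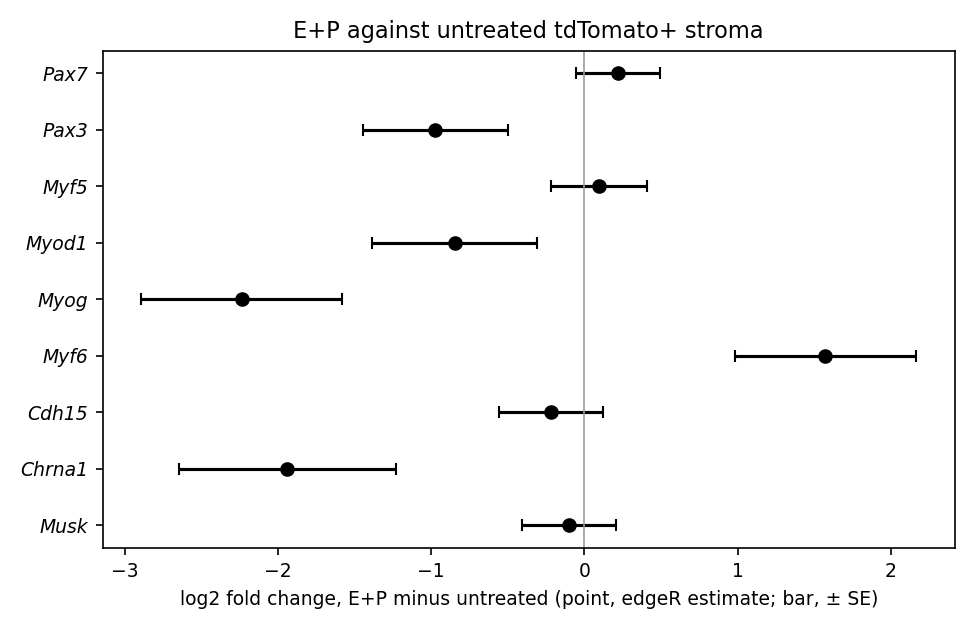
Log2 fold change of the 9 genes between E+P-treated (n = 3) and untreated (n = 4) tdTomato+ stroma, with bars of ± 1 SE from edgeR's fit. *Myog* and *Chrna1* lie near -2 and *Myf6* near 1.6, with the widest bars, and *Pax7*, *Myf5*, *Cdh15* and *Musk* lie within 0.3 of 0.

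The tdTomato+ stroma also held RNA of other cells. In it, 10 of 10 pericyte and smooth muscle markers were detected and summed to 6703 to 9632 CPM in untreated and 6788 to 7256 CPM in E+P-treated mice, against 745.5 to 905.4 CPM in GFP+ stroma. *Pdgfra* averaged 116.6 CPM in tdTomato+ and 2171 CPM in GFP+ stroma, which checks the sort. Luminal markers (4 genes) summed to 17.96 to 420.0 CPM in the untreated and 2.814 to 32.81 CPM in the E+P-treated tdTomato+ stroma. Endothelial markers (3 genes) summed to 22.23 to 77.04 and 77.01 to 224.9 CPM, and fibroblast markers (8 genes) to 1195 to 4052 and 943.3 to 1385 CPM. A single marker was at 0 in a single library (*Epcam* in E+P-treated mouse 3). In GFP+ stroma, untreated and E+P-treated, luminal markers summed to 17.79 to 76.48 and 3.591 to 4.91 CPM. Endothelial markers summed there to 22.84 to 47.96 and 48.25 to 58.79 CPM, and fibroblast markers to 22970 to 35240 and 30700 to 37090 CPM. Neither the 4 luminal markers nor *Kdr* (endothelial) and *Pdgfrb* (pericyte) were called between tdTomato+ and GFP+ stroma over both treatments. All 15 luminal, endothelial and fibroblast markers had an unadjusted p under 0.05 in edgeR's comparison of E+P-treated with untreated tdTomato+ stroma, against 15.6% of all genes. None of the 15 was called. These lists are the ones in which every marker did so. In the other lists it was 0 of 10 pericyte and smooth muscle, 0 of 4 satellite cell and 0 of 3 basal markers. It was 0 of 2 blood, 2 of 5 Schwann, 0 of 1 adipocyte and 0 of 1 brown adipocyte markers tested. The part of other cell types in the differences between E+P-treated and untreated libraries was not tested.

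Muscle fibre transcripts accompanied these genes and moved between the libraries. The summed level of 20 fibre genes was 20480, 25000, 8481 and 4996 CPM in the untreated and 22390, 43090 and 13770 CPM in the E+P-treated tdTomato+ stroma, against 36.57 to 52.59 CPM in GFP+ stroma. Of these genes 18 were called higher in tdTomato+ stroma (21.3% of all genes were), *Myh3* missed the threshold and *Myh7* was not tested. *Ckm*, the muscle creatine kinase, averaged 942.9 CPM in tdTomato+ and 0.0385 CPM in GFP+ stroma (log2 fold change 14.06 ± 0.82, adjusted p = 4.52e-08). Across the 7 libraries, as a description with no test, Pearson's r of the fibre sum (log2) was 0.72 with *Myf6* (Spearman's rho 0.86), -0.73 with *Myod1* (-0.64), 0.57 with *Pax7* (0.36), -0.54 with *Myf5* (-0.64) and -0.32 with *Musk* (-0.39). Without untreated mice 3 and 4, which were farthest from the median of the fibre sum, r was 0.57 for *Myf6*, -0.71 for *Myf5*, -0.68 for *Musk*, 0.02 for *Myod1* and -0.36 for *Pax7*, so that the values of *Myod1* and *Pax7* rested on those libraries. Over the 7 libraries r lay between -0.13 and 0.10 for *Pax3*, *Myog*, *Cdh15* and *Chrna1*. Without untreated mice 3 and 4 it was 0.039, 0.007, -0.458 and -0.225 for these genes in turn. Leaving out single libraries, r ran from -0.234 to 0.883 for *Cdh15* and from -0.136 to 0.583 for *Chrna1*. For *Pax3* it ran from -0.405 to 0.299 and for *Myog* from -0.091 to 0.393, so that these values too rested on single libraries. The 7 points share treatment groups and depth with the genes compared, and the part of fibre RNA in the differences between libraries was not tested.

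Other genes of the satellite cell and of myogenic regulation followed in part. Of 22 listed genes 21 were tested between tdTomato+ and GFP+ stroma, with a median log2 fold change of 3.14 against 0.01 over all genes, and 15 were called higher, 2 lower and 4 not, against 21.3% of all genes called higher and 20.6% called lower. *Fgfr4*, an FGF receptor of satellite cells, averaged 111.3 CPM in tdTomato+ and 0.229 CPM in GFP+ stroma (log2 fold change 9.24 ± 0.41, adjusted p = 3.13e-10), and *Des*, the intermediate filament of muscle, 737.6 and 6.335 CPM (6.88 ± 0.40, 2.12e-08). *Chodl*, a membrane lectin, was at 36.29 and 0.361 CPM (6.57 ± 0.69, 5.17e-06). The 2 genes called lower were *Cdon* and *Boc*, cell surface receptors of the hedgehog pathway, and the 4 not called were *Eya4*, *Msc*, *Barx2* and *Vcam1*. *Des* is also made by pericytes and smooth muscle, whose own markers were abundant in the same libraries. Which cells the other called genes of the list came from was not tested. After E+P, 0 of 21 genes were called by edgeR, and 5 had an unadjusted p under 0.05, against 15.6% of all genes. These 5, chosen after their values were seen, included *Mymk* and *Lbx1*, a homeobox gene of migrating muscle precursors. *Lbx1* stood at 3.705, 3.881, 2.124 and 0.1942 CPM in untreated and 8.216, 9.931 and 8.625 CPM in E+P-treated tdTomato+ stroma, without overlap (log2 fold change 1.85 ± 0.66, adjusted p = 0.192). Of all genes, 5.2% had the 3 E+P-treated libraries all above the 4 untreated libraries. The others of these 5 were *Msc*, *Sdc4* and *Vcam1*.

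Of 11 genes of the neuromuscular junction 8 were tested, with 5 called higher in tdTomato+ stroma, 1 lower and 2 not (21.3% and 20.6% of all genes were called higher and lower), and a median log2 fold change of 3.91. *Chrnb1*, the receptor β subunit, averaged 50.58 CPM in tdTomato+ and 1.781 CPM in GFP+ stroma (4.80 ± 0.20, 8.63e-12), and *Scn4a*, the muscle sodium channel, 12.38 and 1.114 CPM (3.49 ± 0.51, 4.11e-05). *Lrp4*, the agrin receptor that partners MUSK, was lower in tdTomato+ stroma, with 14.66 against 32.27 CPM (-1.11 ± 0.14, 3.88e-06). The δ, ε and γ receptor subunit genes *Chrnd*, *Chrne* and *Chrng* had too few counts to be tested. After E+P edgeR called 0 of 8 genes, and *Agrn* and *Colq* (2 of 8) had an unadjusted p under 0.05, against 15.6% of all genes.

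By Pearson's r of log2 CPM with *Pax7* over the 28 libraries, the 5 most alike of 15052 genes were *Ano5* (0.992), *Pvalb* (0.992), *Tnnc2* (0.990), *Myoz1* (0.988) and *Myf5* (0.987), of which the first 4 are expressed in muscle fibres. The order is set by the contrast of tdTomato+ stroma with all other libraries. Over the 7 tdTomato+ stromal libraries the 5 most alike were *Fxr2* (0.968), *Fam92a* (0.962), *Zfp69* (0.961), *Nmnat2* (0.956) and *Hk1* (0.953), and with 7 points and this many candidates such values are descriptions only. There *Cdh15* had r = 0.76 with *Pax7* (rank 315), *Myf5* 0.10 (rank 6365) and *Myod1* -0.87 (rank 15011).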

How the data were processed

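The authors deposited read counts per gene for 28 libraries, a count of reads without molecular identifiers or normalization. RNA had been amplified with a stranded low-input kit. The paper reports RNA of widely differing quality and a fragmentation time adjusted for poorer RNA. The part of RNA quality in the differences between libraries was not tested. Reads had been aligned with STAR 2.5.2a to GRCm38.p5. The GENCODE release and the strand setting of the counting are not given in the sources used here. Symbols, lengths and coordinates were taken from GENCODE M21 (50376 of 50600 IDs). Differences were tested two-sided with edgeR 4.0.16 (TMM, filterByExpr, robust quasi-likelihood F-test) in R 4.3.3, in 14 stromal or all 28 libraries, and genes were called at a Benjamini-Hochberg adjusted p of 0.01, the study's threshold. SE is the absolute log2 fold change divided by the square root of F, with a prior count of 2 in log2 CPM. Alternatives used DESeq2 1.42.0 and limma 3.58.1, other scaling and filters, blocks and the omission of each mouse. Fits were tested on simulated data. Library titles carry a mouse number and the study's methods describe individual mice, so libraries of the same number and treatment are paired. Between tdTomato+ and GFP+ stroma, deviations from group means correlated at 0.0181 to 0.131 within a mouse (mean 0.0598) and at -0.0214 between mice. Deviations sum to 0 within a group, so the value between mice follows from those within a mouse and is no separate test of the pairing. The 9 genes and the gene lists were chosen with earlier results of these data known. Named are the 9 genes, up to 3 called genes of each list by absolute log2 fold change with at least 10 CPM, and the 5 genes most like *Pax7*.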

Additional observations from a re-analysis of the deposited data

How the results depend on the processing

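The count of the 9 genes higher in tdTomato+ stroma was 9 over both treatments, in untreated mice and against luminal cells under every alternative run, and 8 or 9 in E+P-treated mice, where *Chrna1* decided it. Its log2 fold change there ran from 2.68 to 3.22 without single mice, and its adjusted p from 1.48e-06 to 0.0843 over the alternatives, missing the threshold also in limma-voom (0.054), with DESeq2 size factors (0.0102) and without any of the 3 E+P-treated mice (0.0406 to 0.0843). With the mouse as a replicate block 9 of 9 were called in E+P-treated mice, and the pairing changed no other call. Most of the 9 genes passed the low-count filter only through tdTomato+ stroma, so that these counts of calls add little to the levels. The count changed by E+P was 0 under all alternatives except the fit with no low-count filter, which gave 1 (*Chrna1*), and DESeq2 came closest for *Myog* (adjusted p = 0.0228). Over all genes, E+P changed 22 genes, but 34 with scaling by library size, 384 in DESeq2, 8 in limma-voom, 840 with no filter, 143 at an adjusted p of 0.05, 45 with the replicate number as a block, 0 when untreated and E+P-treated tdTomato+ stroma were fitted alone, and 1 to 85 without single mice. The count of genes higher in tdTomato+ than GFP+ stroma of E+P-treated mice went from 2463 to between 1528 and 1601 without 1 of the E+P-treated mice. The cause was not tested. Leaving out single mice turned the sign of the E+P difference of *Pax7* (-0.109 to 0.399), *Myf5* (-0.073 to 0.315), *Musk* (-0.203 to 0.076) and *Cdh15* (-0.538 to 0.004), and not of the other 5 genes. Over both treatments, a fit limited to the compared groups equals the one reported. Dixon's test was run only for a gene that averaged at least 1 CPM in a group of 4, which made 10 sets. No value stood apart in these. Groups of 4 with a lower mean, among them all luminal ones, and groups of 3 were not tested. *Pax3* in E+P-treated mice averaged 3.36 CPM with scaling by library size and 3.67 CPM with TMM. E+P was compared in 3 and 4 mice, with 17 to 114 counts of *Myog* per tdTomato+ stromal library.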
